A study of Homo sapiens with 72 samples.

Results

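A375, an established human melanoma cell line, was deprived of glutamine for 18 h (mQ) or left in control medium for the same time (pQ), and the mRNA in its cytoplasm was compared at 0 h. The growth medium of the line was DMEM with 10% serum and 2 mM glutamine. The comparison used 11 of the 72 libraries of the study. They were chosen by their labels as every 0 h library of both media, less pQ TCHX replicate 3. All 11 came from cells that received triptolide (25 µM), which blocks transcription, in the T arm as the only inhibitor and in the TCHX arm with cycloheximide (100 µg/ml), an inhibitor of translation, and all were harvested at once after the inhibitors were added. The mQ group held 3 T and 3 TCHX libraries and the pQ group 3 T and 2 TCHX libraries. The libraries were made with QuantSeq, which reads the 3′ end of polyadenylated RNA, and a level in CPM is a count scaled so that all libraries have one total. Nothing in the labels says whether replicates were separate cultures or on separate days, so p-values measure the spread between these libraries, which may be partly technical. T and TCHX libraries of one replicate number may come from one culture, and the labels do not say. A375 is a single cell line, and the values describe this line only.

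Glutamine is the most abundant free amino acid of the blood and of culture medium. Cells take it up through transporters such as SLC1A5 and turn it into glutamate, from which aspartate, asparagine, proline and the TCA cycle intermediate alpha-ketoglutarate can be made. Glutamine also gives nitrogen to purine, pyrimidine and hexosamine synthesis. When an amino acid runs short, uncharged tRNA activates the kinase GCN2 (gene EIF2AK4), which phosphorylates the initiation factor eIF2. Translation then slows in general, while the transcription factor ATF4 is made and drives transporters, aminoacyl-tRNA synthetases (the enzymes that charge tRNA) and amino acid synthesis genes.

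The 11 libraries held between 7651749 and 15370333 counts, with 15938 to 16797 genes counted at least once. The left-out library, pQ TCHX replicate 3, had counts for 19940 genes, and the blood cell markers PTPRC and CD3E reached 31.8 and 32.6 CPM there, against at most 0.392 CPM in the other 11. Of 12 melanocyte lineage and melanoma genes, 2 (MLANA and PRAME) were under 1 CPM in every library. The pigment genes TYR and TYRP1 had means of 0.46 and 0.41 CPM in mQ and 0.47 and 0.66 CPM in pQ. The summed level of the list was 1095 to 1301 CPM in mQ and 1309 to 1480.1 CPM in pQ, most of it from SOX10, S100B, MITF, CSPG4 and MCAM. Summed blood markers stayed at or below 1.3 CPM, hepatocyte markers at or below 0.787 CPM, and fibroblast and endothelial markers at or below 7.41 CPM in the 11 libraries. Of 8 keratinocyte markers, 7 were under 1 CPM, and the keratin gene KRT10 held nearly all of their sum (99.8 to 171 CPM in mQ, 179 to 233 CPM in pQ). Summed neuron markers, led by the tubulin gene TUBB3, were 191 to 213 CPM in mQ and 240.1 to 266 CPM in pQ.

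The library mQ T replicate 2 stood apart. In 6 groups of the study at 5 h, replicate 3 held a level over 4-fold below the mean of replicates 1 and 2 for the same 64 genes. This set was defined after seeing the data, and the groups mQ T and CTU2 siRNA TCHX at 5 h were not used for it. The median level of these 64 genes relative to pQ at 0 h, called the library score here, was between -0.109 and 0.117 on the log2 scale in the 5 pQ libraries. It was -0.285, -0.285 and -0.296 in the mQ TCHX libraries, and -0.767, -2.03 and -0.517 in the mQ T libraries 1, 2 and 3. Of the 64 genes, 42 were called lower in mQ and 0 higher, against 18.6% and 18.4% of all genes tested. Every mQ library scored below every pQ library. As a covariate the score therefore takes up part of the medium effect, and a call lost with it may reflect this overlap. In bulk RNA, a change in the share of cells that hold an mRNA and a change in its amount per cell cannot be told apart. Where the score as a covariate, or leaving out mQ T replicate 2, changed the call of a gene named by rule, this is stated where its call is described. Genes named after their values were seen were not all followed in this way. Of the genes described below, HSPA8, PPP4C, OAT and ALDH18A1 are members of the score, so that their relation to it is built in.

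**Figure D1:**
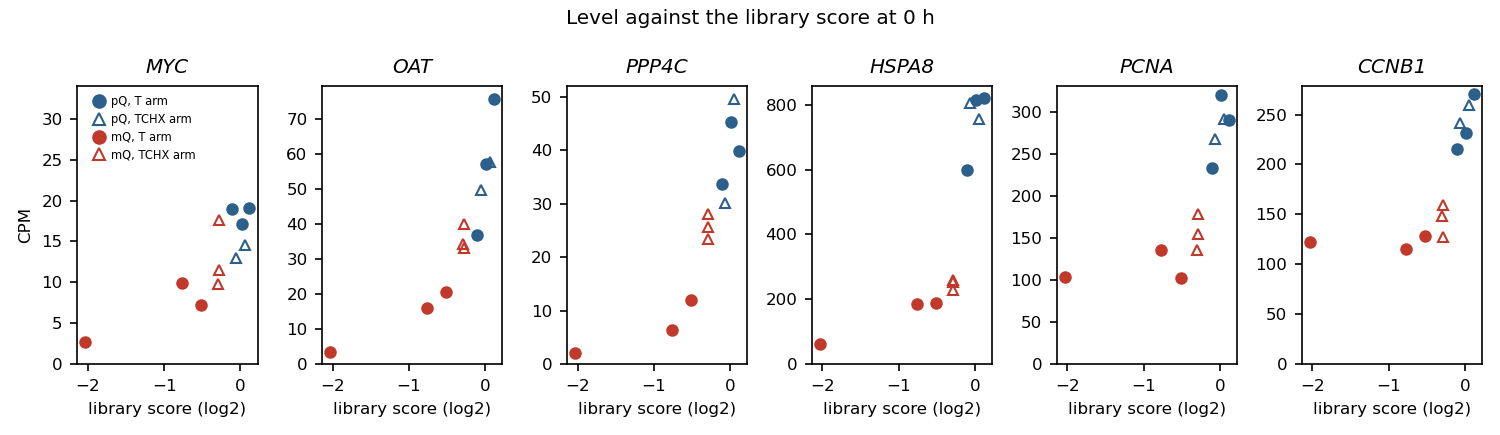
Level of 6 genes in CPM (y axis, from 0) against the library score (x axis, log2) in the 11 libraries at 0 h. Each point is 1 library, blue for pQ and red for mQ, filled for the T arm and open for the TCHX arm. OAT, PPP4C and HSPA8 are members of the score and MYC is not. MYC, OAT and PPP4C were lowest in mQ T replicate 2, at 2.66, 3.42 and 2.09 CPM, whereas the mQ libraries of CCNB1 lay between 115 and 159 CPM at every score.

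Of 12921 genes tested, 4780 differed between the media (37.0%, edgeR quasi-likelihood test with Benjamini-Hochberg adjustment, threshold 0.05). In mQ, 2377 mRNAs (18.4%) were at higher and 2403 (18.6%) at lower levels than in pQ. Most changes were small, with 2760 of the 4780 under 1.5-fold. Large changes were more often increases. Of the 708 called genes that changed by over 2-fold, 473 were higher and 235 lower in mQ, and a change of at least 4-fold was found for 73 genes called higher and 18 called lower. The 6 mQ libraries did not overlap the 5 pQ libraries for 2875 of the tested genes (22.3%), 1232 with mQ above and 1643 with mQ below. The median log2 fold change of all tested genes was 0.00348, and the median standard error of a gene's log2 fold change was 0.132.

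The 10 largest increases by the rule used to name genes were those of CHAC1, NUPR1, ALDH1L2, CAMP, JDP2, HHIP, TRIB3, DDIT3, CTH and ATF3. Of these, 7 belong to the list of amino acid response genes and ALDH1L2 is a mitochondrial folate enzyme. CAMP encodes the antimicrobial peptide cathelicidin and HHIP an inhibitor of hedgehog ligands, and both were scarce in pQ, at 0.1 to 0.243 CPM and 0.243 to 0.966 CPM. In mQ they reached 2.97 to 7.23 CPM and 3.25 to 7.19 CPM, without overlap. The 10 largest decreases were those of HSPA8, FZD1, DKK1, HSPA2, PARD6G, EAF2, PPP4C, ST8SIA1, ENC1 and PLK4. HSPA8 and HSPA2 encode chaperones of the HSP70 family, FZD1 and DKK1 a receptor and an inhibitor of the Wnt pathway, and PLK4 the kinase that starts centriole duplication. EAF2 and PPP4C were no longer called with the library score as a covariate, at -0.98 and -0.29 on the log2 scale. FZD1 was at 15.6, 18.9, 12.8, 14.8 and 20.4 CPM in the 5 pQ libraries, and at 1.71, 4.68 and 6.38 CPM (lowest, median and highest) in mQ. DKK1 fell by 1.77 ± 0.28 on the log2 scale (SE, adjusted p = 0.000132), from between 3.49 and 7.91 CPM to between 0.856 and 2.28 CPM.

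The amino acid response had the highest median change of the 29 gene lists examined. The counts called in each list are to be read against 18.4% higher and 18.6% lower of all genes tested. Of 28 listed transcription factors and feedback genes, 24 were tested and 22 were called higher (91.7%, against 18.4% of all genes), and 0 were lower. The list's median was 2.09 on the log2 scale, and it was also 2.09 with ADM2, which had 0 counts in pQ, set at its lower bound. For 21 of the 24 the mQ libraries lay above every pQ library, against 1232 of all 12921 genes tested. The exceptions to the increase were EIF2AK4, the sensor kinase GCN2 itself, and EIF2AK3, the kinase PERK that phosphorylates eIF2 under endoplasmic reticulum stress, with log2 fold changes of -0.08 and -0.36 that did not pass the test.

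ATF4 (chromosome 22, 39519695 to 39522683, GRCh38) was at 215, 223, 246, 237 and 206 CPM in pQ and at 1036, 1197 and 1551 CPM (lowest, median and highest) in mQ. The groups were far apart, and the level rose by 2.51 ± 0.09 on the log2 scale (5.69-fold, adjusted p = 1.95e-12). DDIT3 (chromosome 12, 57516588 to 57521737), which encodes the pro-apoptotic factor CHOP, was at 26.5, 27.2, 25.1, 27.3 and 23.1 CPM in pQ and at 177, 223 and 270.0 CPM in mQ. Its increase was 8.91-fold (adjusted p = 6.65e-12). TRIB3, a pseudokinase that feeds back on ATF4, rose 9.25-fold, from between 28.6 and 35.7 CPM to between 219 and 339 CPM. In all 3 genes each mQ library was several-fold above each pQ library.

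CHAC1 (chromosome 15, 40952962 to 40956512), which breaks down glutathione, went from nearly undetected to a moderate level. It was at 2.25, 1.86, 3.00, 3.01 and 2.91 CPM in pQ and at 126, 144 and 177 CPM in mQ (58.7-fold, log2 5.88 ± 0.16, adjusted p = 5.99e-14). NUPR1, a stress-induced nuclear protein, was at 0.966 to 2.35 CPM in pQ and at 57.9, 80.5 and 132 CPM in mQ. JDP2 and ATF3, which encode leucine zipper transcription factors, rose 20.7-fold and 8.42-fold. The cystathionine-cleaving enzyme CTH, which makes cysteine, rose 8.48-fold, from between 4.22 and 6.22 CPM to between 29.6 and 48.3 CPM. Among these genes, every mQ library lay above every pQ library.

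Further members of the list were named after their values were seen. ADM2, which encodes a secreted peptide, had 0 counts in all 5 pQ libraries and 7 to 50 counts per mQ library, so that it was at least 50.0-fold higher, with the floor set at 3 counts over the pQ group. INHBE, an inhibin subunit outside the list, had 0 counts in pQ and 18 to 38 counts per mQ library and was at least 42.4-fold higher by the same floor. DDIT4, an inhibitor of mTORC1, rose by 2.97 ± 0.13 on the log2 scale, and the secreted stress factor GDF15 by 2.23 ± 0.15. For GDF15 the pQ libraries were at 658, 702, 1268, 695 and 695 CPM, with T replicate 3 above the others, and the mQ libraries at 3168 to 4302 CPM. VEGFA, the vascular growth factor, rose 3.63-fold, from between 15.2 and 21.1 CPM to between 32.2 and 92.5 CPM.

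**Figure D2:**
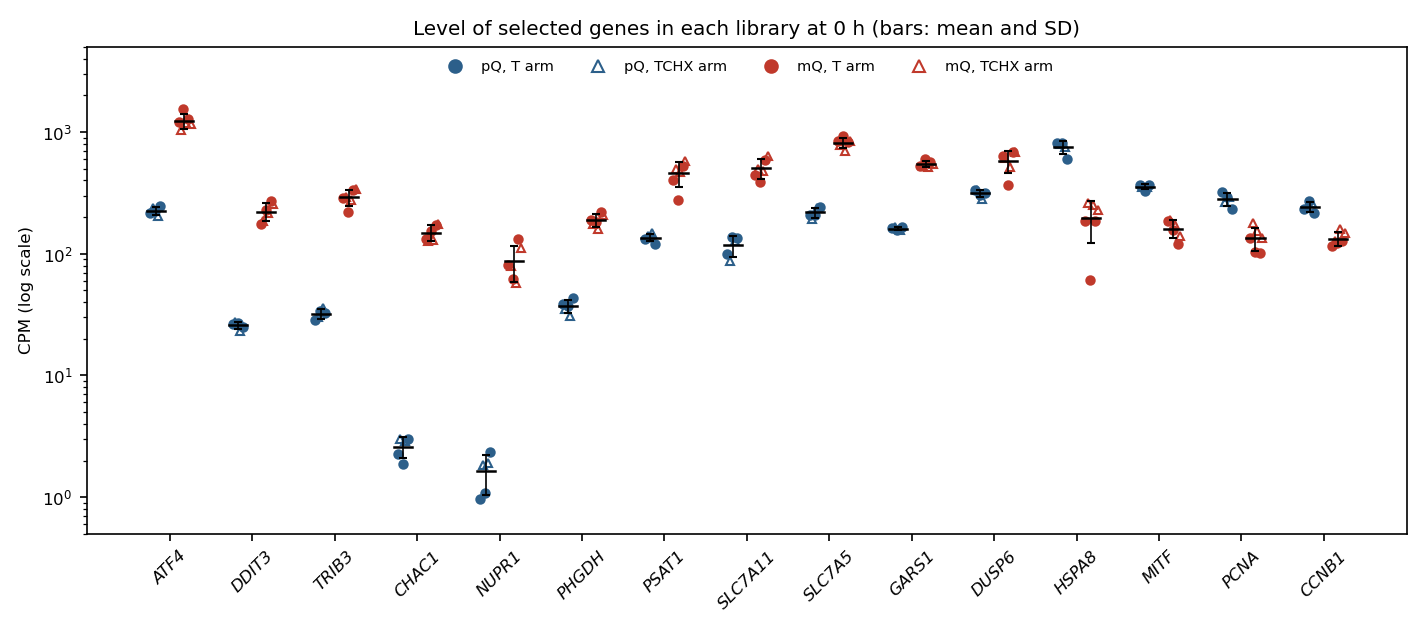
Level of 15 genes in CPM (log y axis) in each of the 11 libraries at 0 h, blue for pQ and red for mQ, with filled points for the T arm and open points for the TCHX arm. Black bars give the mean and SD of each medium. CHAC1 and NUPR1 were below 4 CPM in every pQ library and above 50 CPM in every mQ library, whereas HSPA8, MITF, PCNA and CCNB1 were lower in every mQ library than in any pQ library.

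Promoter sequences (RefSeq, GRCh38.p14, 250 bases before to 50 after the start of each gene) were searched on both strands for the core of the amino acid response element, TGATGNAA, which ATF4 binds together with C/EBP factors. A promoter was found for 9879 of the tested genes. The element was present in 1.81% of these promoters, in 3.67% of all 27305 promoters of the same length, in 8.25% of the 315 promoters of genes called higher by over 2-fold and in 1.18% of the 170 of genes called lower by over 2-fold. It was found in 3 of 20 promoters of the amino acid response list, in 4 of 17 of the amino acid transporters and in 5 of 15 of the cytosolic aminoacyl-tRNA synthetases. A match describes the letters only and is not a site of binding. The following 60-base windows show the match in genes that rose, each on the strand of its gene, with the element in capitals, which reads TTGCATCA where it lies on the opposite strand.
CHAC1 (chr15:40953236-40953295, plus strand): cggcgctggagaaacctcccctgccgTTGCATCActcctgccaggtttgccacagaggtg
ATF3 (chr1:212565190-212565249, plus strand): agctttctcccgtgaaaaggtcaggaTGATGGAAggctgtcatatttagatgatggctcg
AARS1 (chr16:70289660-70289719, minus strand): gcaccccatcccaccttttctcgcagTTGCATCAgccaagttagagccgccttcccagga
GOT1 (chr10:99430789-99430848, minus strand): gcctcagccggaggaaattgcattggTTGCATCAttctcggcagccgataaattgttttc
BCAT1 (chr12:24949116-24949175, minus strand): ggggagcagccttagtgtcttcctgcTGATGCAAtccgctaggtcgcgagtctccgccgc
The windows differ outside the element, and in CHAC1 and AARS1 the match lay 209 and 187 bases before the RefSeq start. The CHAC1 window lies inside the GENCODE gene bounds given above, whose start lies farther upstream.

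Many aminoacyl-tRNA synthetases of the cytosol rose. Of 18 tested, 11 were called higher (61.1%) and 0 lower, with a median log2 fold change of 0.66. GARS1, which charges glycine tRNA, was at 161, 156, 165, 164 and 158 CPM in pQ and at 519.9, 539.5 and 602 CPM in mQ. It rose 3.52-fold (log2 1.82 ± 0.06, adjusted p = 2.13e-12). WARS1 and SARS1, for tryptophan and serine, rose 3.49-fold and 2.92-fold, and CARS1 and AARS1, for cysteine and alanine, by 2.12 and 1.36 on the log2 scale. EPRS1, which charges glutamate and proline tRNAs, was at 170.2, 172, 167, 174 and 171 CPM in pQ and at 325, 354 and 363 CPM in mQ, a 2.09-fold rise (adjusted p = 1.38e-09). The synthetase for glutamine, QARS1, was at 159, 169.9, 163, 159 and 158 CPM in pQ and at 147, 166 and 181 CPM in mQ, and the log2 difference of 0.07 ± 0.07 did not pass the test (adjusted p = 0.467). IARS1 and VARS1 were listed at or near 0 and were not tested. Of 15 mitochondrial synthetases tested, 0 were called higher and 4 lower (26.7%). IARS2 fell by 0.66 ± 0.09 on the log2 scale without overlap, and MARS2 by 0.85 ± 0.19, NARS2 by 0.50 ± 0.18 and YARS2 by 0.29 ± 0.11 with overlapping groups. NARS2 lost its call in 19 of 29 alternative settings, among them without mQ T replicate 2 and with the score as a covariate, and MARS2 lost it with the score as a covariate, at -0.32. Without mQ T replicate 2 the number called lower was 2, and with the library score as a covariate 1. YARS2 was not called in either setting.

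Amino acid transporters moved in both directions. Of 18 tested, 9 were called higher (50.0%, against 18.4% of all genes) and 4 lower (22.2%, near the 18.6% of all genes). All 9 increases were without overlap, as were 1228 of the 2377 increases over all genes. SLC7A5, the light chain of the exchanger that brings in leucine in return for glutamine, was at 209.9, 209.8, 240.5, 194 and 239 CPM in pQ and at 697, 833 and 922 CPM in mQ (3.88-fold, adjusted p = 8.29e-12). Its partner SLC3A2 rose by 1.51 ± 0.10 on the log2 scale. SLC7A11, the cystine importer that exports glutamate, was at 99.9, 137, 135, 87.0 and 128 CPM in pQ and at 389.7, 488 and 637 CPM in mQ, a 4.42-fold rise. The main glutamine importer SLC1A5 rose 2.32-fold, from between 204 and 235 CPM to between 435 and 536 CPM. SLC38A2, another carrier of neutral amino acids including glutamine, rose by 1.18 ± 0.08 on the log2 scale. SLC1A1, a carrier of glutamate and aspartate, fell by 2.44 ± 0.43 on the log2 scale (adjusted p = 0.000346), from between 2.44 and 4.31 CPM to between 0.112 and 1.48 CPM, levels at which few reads stand behind each value. SLC36A4, SLC25A13 and SLC7A6 fell by 0.88 ± 0.20, 0.31 ± 0.10 and 0.32 ± 0.10. The score as a covariate left 9 transporters called higher and 2 lower. SLC7A6 was then not called, and neither was SLC36A4, at -0.68.

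Enzymes of serine synthesis and of the mitochondrial folate cycle rose, while TYMS, MAT2A, MTR, GLDC and MTHFD1 of the same list fell. PHGDH, PSAT1 and PSPH, which together make serine, rose 5.33-fold, 3.39-fold and 4.77-fold. PHGDH was at 39.0, 37.2, 43.1, 35.4 and 30.7 CPM in pQ and at 159, 186 and 222 CPM in mQ, and PSAT1 at 133, 138, 121, 139.6 and 148 CPM in pQ and at 276, 483 and 578 CPM in mQ. The mQ libraries lay above the pQ libraries in each of them, with mQ T replicate 2 the lowest mQ library for PSAT1. In the mitochondrion, SHMT2 and MTHFD2 rose 2.14-fold and 2.78-fold (adjusted p = 3.65e-09 and 7.09e-09). ALDH1L2 was at 2.99 to 9.78 CPM in mQ, and in pQ it had no count in 3 libraries and 2 and 7 counts in the other ones. TYMS, which makes thymidylate for DNA, fell by 0.92 ± 0.08 on the log2 scale, and MAT2A, which makes S-adenosylmethionine, by 0.79 ± 0.11. GLDC, of the glycine cleavage system, fell by 1.77 ± 0.44, and MTR and MTHFD1, of the folate and methionine cycles, by 0.37 ± 0.09 and 0.24 ± 0.07. MTR was not called with the score as a covariate, at -0.26. Over the list, 8 of 16 tested genes were called higher and 5 lower.

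Genes of glutamine, glutamate and proline metabolism were also divided. GLUL, which makes glutamine from glutamate and ammonia, had a median of 16.4 CPM in mQ and of 15.0 CPM in pQ, and the groups overlapped (log2 0.18 ± 0.16, adjusted p = 0.427). The transaminases GPT2 and GOT1 rose 4.29-fold and 2.66-fold, and PYCR1, the last enzyme of proline synthesis, 3.11-fold. ALDH18A1, the first enzyme of that route, and OAT, which links ornithine to it, were called lower. OAT was at 57.2, 75.9, 36.9, 49.9 and 57.8 CPM in pQ, at 16.0, 3.42 and 20.7 CPM in the mQ T libraries and at 40.1, 33.3 and 34.4 CPM in the mQ TCHX libraries. With the score, of which OAT is a member, as a covariate it was not called, at -0.08. ALDH18A1 was at 17.2 CPM in mQ T replicate 2 and at 45.3 to 52.4 CPM in the other mQ libraries, and with the score, of which it is a member, as a covariate its log2 difference went from -0.55 to 0.06. ASNS, the asparagine synthetase, had at most 7 counts in any library and is given no direction. Of 15 tested genes of this list, 7 were called higher and 2 lower.

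Enzymes of nucleotide synthesis fell more often than they rose. Of 22 purine and pyrimidine enzymes tested, 12 were called lower (54.5%, against 18.6% of all genes) and 1 higher, with a median log2 fold change of -0.28. With the score as a covariate 9 were called lower and 1 higher. PAICS, an enzyme of purine synthesis, was at 363, 396, 354, 359 and 358 CPM in pQ and at 169.8, 224 and 272 CPM in mQ. CAD, which starts pyrimidine synthesis with glutamine, fell by 0.42 ± 0.07 on the log2 scale and PRPS2, which makes the ribose precursor, by 0.94 ± 0.14. All 3 were without overlap. GART, another purine enzyme, was the member called higher (0.29 ± 0.10), with overlap, and lost the call in 12 of 29 alternative settings. Of 7 hexosamine genes tested, 2 rose and 2 fell (28.6% each way, against 18.4% and 18.6% of all genes). OGT and OGA, which add and remove O-GlcNAc on proteins, rose by 1.14 ± 0.13 and 1.08 ± 0.10 on the log2 scale, and GFPT2 and UAP1, a first and a last step of UDP-GlcNAc synthesis, fell by 1.19 ± 0.17 and 0.77 ± 0.12 on the log2 scale.

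**Figure D3:**
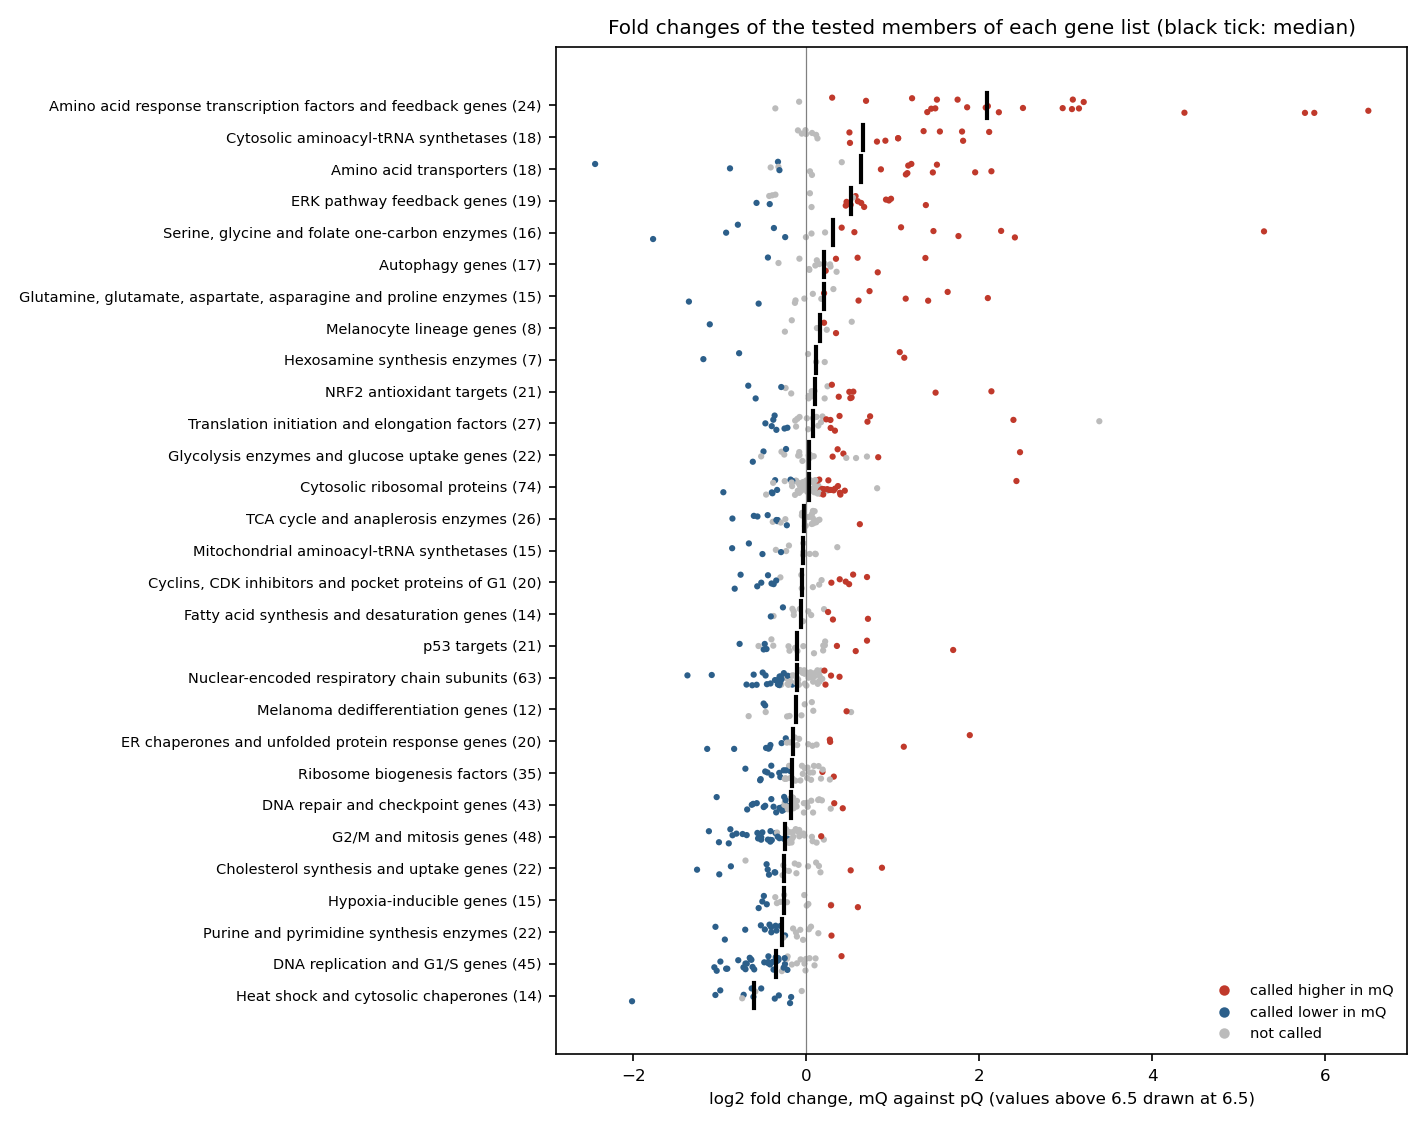
Log2 fold change of mQ against pQ (x axis) for the tested members of 29 gene lists (y axis, number tested in parentheses, ordered by median). Each point is a gene, red if called higher, blue if called lower and grey if not called, and the black tick is the list's median. The amino acid response list (median 2.09) lies at the top, heat shock genes (-0.598) at the bottom, and 14 of the 29 lists have more members called lower than higher.

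Of 63 nuclear-encoded respiratory chain subunits tested, 22 were called lower (34.9%, against 18.6% of all genes) and 4 higher (6.35%, against 18.4%), with a median of -0.11. ATP5MC3 and NDUFB4 fell by 0.50 ± 0.07 and 0.61 ± 0.08 on the log2 scale, without overlap. With the library score as a covariate 12 were called lower and 2 higher. Among 26 TCA cycle and anaplerotic genes, 8 were called lower, such as CS (citrate synthase, -0.33 ± 0.07) and SUCLA2 (-0.60 ± 0.14), and 1 higher, PC, whose groups overlapped. With the score as a covariate 5 were called lower and 3 higher, and PC was not called, at 0.27. Glycolysis genes had 5 called higher (22.7%) and 3 lower (13.6%) of 22 tested, shares near those of all genes (18.4% and 18.6%), with GAPDH at 0.36 ± 0.06 and PKM at 0.43 ± 0.08 on the log2 scale, and the regulatory kinase PFKFB3 at -0.49 ± 0.08. TXNIP, which limits glucose uptake, was at 75.0, 73.2, 83.1, 68.0 and 69.4 CPM in pQ. In mQ it varied, from 167 CPM in T replicate 2 to 663 and 689.8 CPM in replicate 3 of the T and TCHX arms, and it rose 5.55-fold (adjusted p = 9.99e-06). Its relative ARRDC4 was at 1.14 to 7.19 CPM in mQ and 2.25 to 2.92 CPM in pQ and did not pass the test (adjusted p = 0.411), but was called higher with the score as a covariate, by 1.26. The glucose transporters SLC2A1 and SLC2A3 moved in opposite directions, by -0.62 ± 0.09 and 0.83 ± 0.10 on the log2 scale. LDHA and ALDOA were listed at or near 0 in these libraries and were not tested.

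Genes of cholesterol synthesis and uptake had 8 of 22 tested members called lower (36.4%) and 2 higher. INSIG1, which holds the sterol sensor in the endoplasmic reticulum, was at 33.4, 32.9, 27.4, 30.7 and 34.3 CPM in pQ and at 13.8, 15.6 and 17.2 CPM in mQ. It fell by 1.00 ± 0.10 on the log2 scale and the sterol carrier STARD4 by 1.26 ± 0.23, both without overlap. MVK and TM7SF2, enzymes at an early and a late step, were the members called higher, with overlap, and neither was called with the score as a covariate. SQLE, which makes the sterol precursor epoxide, did not pass the test, with a log2 difference of -0.13 ± 0.11. In fatty acid synthesis, 3 of 14 tested genes were called higher (21.4%) and 2 lower (14.3%), also near the shares of all genes. ACSS2 was at 9.98 to 15.7 CPM in mQ and 6.98 to 9.15 CPM in pQ, and was not called with the score as a covariate, at 0.52. Hypoxia-inducible genes had 4 of 15 called lower (26.7%) and 2 higher (13.3%), against 18.6% and 18.4% of all genes. VEGFA, whose rise is given above after the amino acid response genes, was not in this list. The mitophagy receptors BNIP3 and BNIP3L fell by 0.45 ± 0.09 and 0.49 ± 0.09 and the oxidoreductase ERO1A by 0.51 ± 0.09 on the log2 scale, while NDRG1 rose by 0.60 ± 0.10, each without overlap. INSIG2 was called lower and MXI1 higher. With the score as a covariate, and also without mQ T replicate 2, 3 of the list were called lower, and INSIG2 was not.

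Most chaperones of the heat shock list fell. Of 14 tested, 11 were called lower (78.6%) and 0 higher, with a median log2 fold change of -0.60. The constitutive HSP70 gene HSPA8 (chromosome 11, 123057489 to 123063230) was at 814, 819.9, 599, 804 and 754 CPM in pQ. It was at 185, 60.7 and 187 CPM in the mQ T libraries and at 260.1, 254 and 229.9 CPM in the mQ TCHX libraries. The decrease was 2.01 ± 0.21 on the log2 scale (adjusted p = 2.23e-06), and HSPA8 is itself among the 64 genes of the library score. HSPE1 and HSPH1, a mitochondrial co-chaperonin and a nucleotide exchange factor of HSP70, are not in the score and fell by 0.99 ± 0.09 and 0.63 ± 0.06 without overlap. With the score as a covariate 12 members were called lower. HSPA1A and HSPA1B, the inducible members, were listed at or near 0.

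Genes of the endoplasmic reticulum were called lower more often than higher. Of 20 tested, 4 were called higher and 8 lower, with a median of -0.16. HSPA5, the main chaperone there, was at 719, 822 and 1097 CPM in mQ and at 892, 957 and 986 CPM (lowest, median and highest) in pQ, and did not pass the test (log2 -0.10 ± 0.08, adjusted p = 0.358). It was called lower without mQ T replicate 2 (-0.19, adjusted p = 0.0161) and with the score as a covariate (-0.30, adjusted p = 0.00337). MANF, a secreted chaperone cofactor, was at 321, 334, 299, 317 and 350.2 CPM in pQ and at 84.4, 155 and 185 CPM in mQ. HERPUD1 and ERN1, which encode a component of protein disposal and the sensor IRE1, rose 2.19-fold and 3.71-fold. Of the NRF2 antioxidant targets, 8 of 21 were called higher (38.1%, against 18.4% of all genes), among them SLC7A11 and OSGIN1. Called lower were 3 (14.3%, against 18.6%), TXN, GCLM and KEAP1. With the score as a covariate 11 were called higher and 3 lower, and KEAP1 was not called, at -0.17. Autophagy genes had 5 of 17 called higher (29.4%, against 18.4% of all genes), among them GABARAPL1 (2.60-fold) and NBR1 (1.78-fold). The 1 called lower (5.88%, against 18.6%) was ATG3 (-0.44 ± 0.10), which was not called with the score as a covariate, at -0.19. Of 21 p53 targets, 4 rose (BBC3, CDKN1A, PHLDA3 and TNFRSF10B) and 4 fell (AEN, CCNG1, POLH and SESN1), 19.0% each way against 18.4% and 18.6% of all genes. PHLDA3 was not called with the score as a covariate, at 0.21. GADD45A was outside this list and rose 2.92-fold, from between 22.3 and 32.8 CPM to between 63.9 and 112 CPM. BBC3, which encodes the cell death protein PUMA, rose 3.25-fold, and the CDK inhibitor CDKN1A rose 1.63-fold with overlapping groups, at 51.8 to 95.7 CPM in mQ and 34.6 to 60.0 CPM in pQ.

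**Figure D4:**
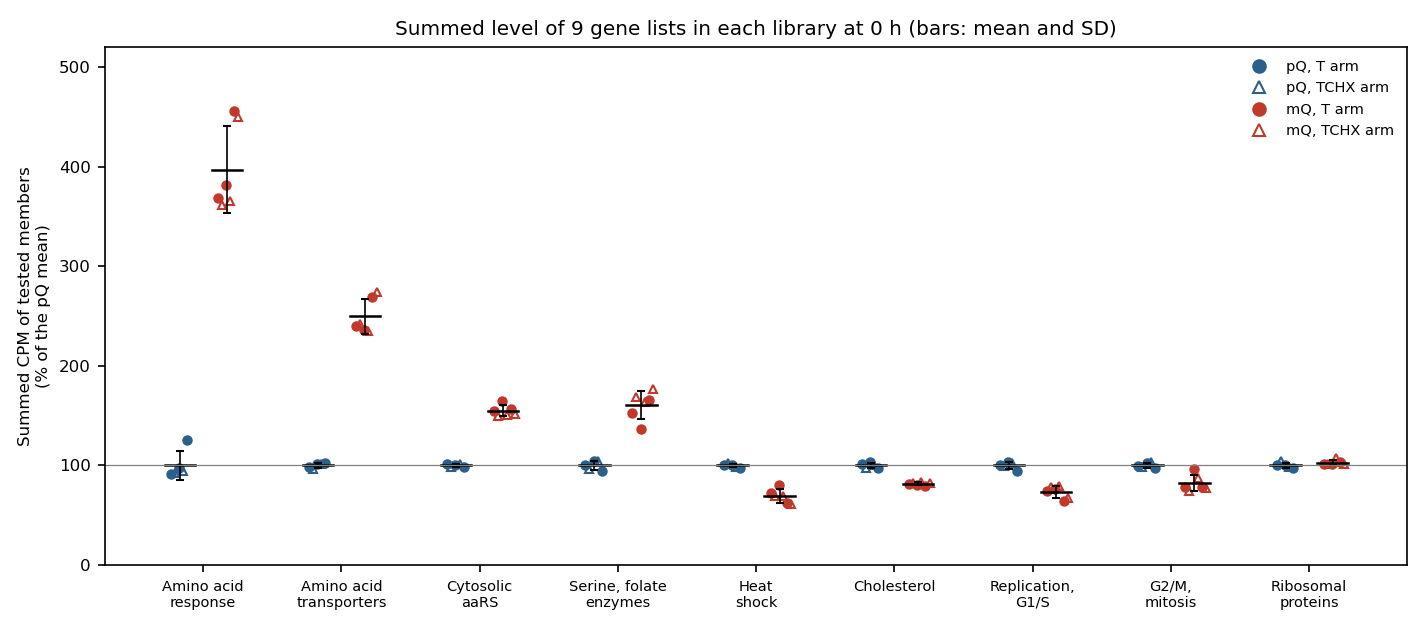
Summed CPM of the tested members of 9 gene lists in each library at 0 h, as a percentage of the mean of the pQ libraries (y axis, from 0). Points are libraries, blue for pQ and red for mQ, filled for the T arm and open for the TCHX arm, with mean and SD as black bars. The amino acid response sum was 7105 to 8979 CPM in mQ and 1794 to 2467 CPM in pQ, and the DNA replication sum 3547 to 4379 CPM in mQ and 5184 to 5684 CPM in pQ.

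Most DNA replication genes fell. Of 45 DNA replication and G1/S genes tested, 31 were called lower (68.9%, against 18.6% of all genes) and 1 higher, with a median of -0.35 on the log2 scale. For 22 of the 45 the mQ libraries lay below every pQ library, against 1643 of all 12921 genes tested. PCNA, the sliding clamp of DNA polymerases, was at 320.1, 290.0, 233, 268 and 291 CPM in pQ and at 102, 135 and 178 CPM in mQ. It fell by 1.06 ± 0.11 on the log2 scale (adjusted p = 1.61e-06). FEN1, which processes Okazaki fragments, and MCM2, a subunit of the replicative helicase, fell by 0.99 ± 0.09 and 0.62 ± 0.09. RRM2, the ribonucleotide reductase subunit, fell by 0.38 ± 0.08, and its groups overlapped. E2F1, the transcription factor of this programme, was at 51.6, 58.1 and 76.5 CPM in mQ and 54.3, 63.5 and 71.5 CPM in pQ and did not pass the test (adjusted p = 0.903). CDT1, which loads the helicase, was the member called higher (log2 0.41 ± 0.10), with overlap, and was not called with the score as a covariate, at 0.24.

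Of 48 G2/M and mitosis genes tested, 25 were called lower (52.1%) and 1 higher, CKS1B, whose call of 0.17 ± 0.06 on the log2 scale was lost in 17 of 29 alternative settings. Without mQ T replicate 2 the number called lower was 35, and with the library score as a covariate 28. CCNB1 (chromosome 5, 69167135 to 69178245), cyclin B1, was at 232, 271, 216, 242 and 259 CPM in pQ and at 115, 128 and 159 CPM in mQ. Its partner CDK1 was at 170.4, 171, 152, 169 and 160.2 CPM in pQ and at 85.8, 97.8 and 110.5 CPM in mQ. They fell by 0.85 ± 0.08 and 0.73 ± 0.07 on the log2 scale, with no overlap. The proliferation marker MKI67 was at 165, 189.9 and 248 CPM in mQ, with mQ T replicate 2 the highest, and at 205 to 255 CPM in pQ, and did not pass the test (log2 -0.16 ± 0.09, adjusted p = 0.203). It was called lower without mQ T replicate 2 (-0.24, adjusted p = 0.00945) and with the score as a covariate (-0.39, adjusted p = 0.000894). DNA repair and checkpoint genes had 17 of 43 called lower (39.5%) and 2 higher, MRE11 and ATM, both with overlap. The score as a covariate left 13 called lower and 1 higher, and MRE11 was not called, at 0.17. CLSPN, which relays the replication checkpoint, fell by 0.57 ± 0.08 and RPA3, a subunit that coats single-stranded DNA, by 0.61 ± 0.10.

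Promoters of these lists were searched on both strands for 2 motifs of cell cycle promoters. The CHR motif TTTGAA, bound by the DREAM and MuvB complexes, was present in 30 of 42 promoters of the G2/M list, against 9.65% of the promoters of tested genes and 15.4% of all promoters. The E2F motif TTTCCCGC was present in 11 of 38 promoters of the replication list, against 2.72% of those of tested genes and 1.66% of all promoters. These list shares cover all tested members, called or not. Over all genes called lower, 11.1% of promoters held the CHR motif and 3.22% the E2F motif. Among the 170 promoters of genes called lower by over 2-fold, 15.9% held the CHR motif and 1.18% the E2F motif. The windows of the genes below, chosen among the members called lower with the smallest p-values, have the CHR motif in capitals, as TTTGAA or TTCAAA by strand.
CDK1 (chr10:60778144-60778201, plus strand): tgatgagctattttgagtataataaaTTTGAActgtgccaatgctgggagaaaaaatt
CKS2 (chr9:89311140-89311194, plus strand): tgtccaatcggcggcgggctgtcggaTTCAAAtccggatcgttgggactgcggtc
PRC1 (chr15:90994536-90994581, minus strand): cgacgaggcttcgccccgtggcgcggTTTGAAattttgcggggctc
In TYMS, PCNA and GINS2, which encode thymidylate synthase, the clamp and a helicase cofactor, the E2F motif lies on the strand opposite to the gene and reads GCGGGAAA.
TYMS (chr18:657588-657647, plus strand): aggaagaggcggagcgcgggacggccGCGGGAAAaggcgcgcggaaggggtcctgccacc
PCNA (chr20:5126648-5126707, minus strand): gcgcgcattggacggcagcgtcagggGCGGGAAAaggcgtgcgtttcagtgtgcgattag
GINS2 (chr16:85688955-85689011, minus strand): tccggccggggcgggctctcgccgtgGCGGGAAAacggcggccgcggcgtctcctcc
The matches are a description of letters, and no comparison of motif shares was tested.

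Regulators of G1 and of growth signalling gave a mixed picture. Among 20 cyclins, CDK inhibitors and pocket proteins of G1, 6 were called higher (30.0%) and 8 lower (40.0%), against 18.4% and 18.6% of all genes. With the score as a covariate 6 were called higher and 4 lower. CCND1, cyclin D1, was at 249, 249.7, 255, 232 and 255 CPM in pQ and at 297, 319 and 394 CPM in mQ, and rose 1.37-fold, as did CDK6, its kinase partner, by 1.31-fold. MYC was at 17.1, 19.1, 19.0, 12.9 and 14.6 CPM in pQ, at 9.90, 2.66 and 7.19 CPM in the mQ T libraries and at 17.6, 11.5 and 9.73 CPM in the mQ TCHX libraries. It was called lower (log2 -0.83 ± 0.28, adjusted p = 0.0304), but lost the call in 12 of 29 alternative settings, the TCHX arm alone among them, and with the library score as a covariate its log2 difference was 0.07. Feedback genes of the ERK pathway, which A375 drives through mutant BRAF, had 11 of 19 tested members called higher (57.9%) and 2 lower, SPRY1 and DUSP5, whose calls were lost in 15 and 19 of 29 alternative settings, both with the score as a covariate and that of DUSP5 also without mQ T replicate 2. DUSP6, the ERK phosphatase, was at 283 to 336 CPM in the 5 pQ libraries and at 367, 624 and 686 CPM in mQ, with mQ T replicate 2 the lowest of mQ. SPRY4 and MAFF rose 1.94-fold and 1.98-fold, without overlap. MITF (chromosome 3, 69739456 to 69968336), the master factor of the melanocyte lineage, was at 369.7, 331, 370.2, 355 and 354 CPM in pQ and at 120.4, 165 and 191 CPM in mQ, and fell by 1.11 ± 0.10 on the log2 scale. Its partner in the lineage, SOX10, was at 259 to 302 CPM in mQ and 226 to 299 CPM in pQ, and its call of 0.21 ± 0.08 on the log2 scale (adjusted p = 0.041) was lost in 14 of 29 alternative settings. Of 8 melanocyte lineage genes tested, 2 were called higher (25.0%, MCAM, 0.35 ± 0.10, and SOX10) and 1 lower (12.5%, MITF), with a median of 0.17. MCAM was not called with the score as a covariate, at 0.18. Of 12 genes of melanoma dedifferentiation, 1 was called higher (8.33%, FOSL1, 0.47 ± 0.10) and 2 lower (16.7%, VIM, -0.49 ± 0.10, and TCF4, -0.47 ± 0.17). Both shares are under those of all genes (18.4% and 18.6%). The call of TCF4 was lost in 18 of 29 alternative settings. AXL, of the same list, was at 20.1 to 46.6 CPM in mQ and 22.9 to 40.8 CPM in pQ.

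Ribosomal protein mRNAs overlapped between the media in their summed level, at 134541 to 142429 CPM in mQ and 129641 to 137981 CPM in pQ. Of 74 tested, 20 were called higher (27.0%) and 7 lower (9.46%), mostly by little, against 18.4% and 18.6% of all genes. RPS3 rose by 0.45 ± 0.06 on the log2 scale, and RPS26 fell by 0.96 ± 0.09, from between 269.9 and 334 CPM to between 112 and 189 CPM. Ribosome biogenesis factors had 12 of 35 called lower (34.3%), among them NOP16 (-0.70 ± 0.08) and NIP7 (-0.52 ± 0.08), and 2 higher, NHP2 and PES1, whose calls were lost in 16 and 13 of 29 alternative settings, both with the score as a covariate and that of PES1 also without mQ T replicate 2. The difference of PES1 changed sign in 1 further setting. Among translation initiation and elongation factors, 8 of 27 were called higher (29.6%) and 7 lower (25.9%), against 18.4% and 18.6% of all genes. The eIF2 subunits EIF2S2 and EIF2S3 and the start codon factor EIF1 rose 1.67-fold, 1.31-fold and 1.64-fold, while the cap-binding factor EIF4E fell by 0.47 ± 0.07. EIF3C was called higher with overlap, by 2.40 ± 0.59, but is scarce, has a near-identical paralog and is uncertain.

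Triptolide was present in every library, and cycloheximide in the TCHX arm only. The effect of the medium was therefore tested for a difference between the arms. Of 13291 genes, 0 (0.0%) differed between the arms by edgeR's interaction test after adjustment, and 806 had an unadjusted p under 0.05. A p that misses the threshold does not show that the arms act alike. For ATF4 the log2 fold change was 2.61 in the T arm and 2.38 in the TCHX arm, and for CHAC1 it was 6.04 and 5.63. Some genes differed more, in the library score, such as PPP4C at -2.52 and -0.61 and OAT at -2.06 and -0.56, and outside it, such as MYC at -1.46 and -0.07. ALDH18A1, also in the score, was at -0.76 and -0.29. The score itself was lower in the mQ T than in the mQ TCHX libraries, so a larger fall of its members in the T arm is built in.

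**Figure D5:**
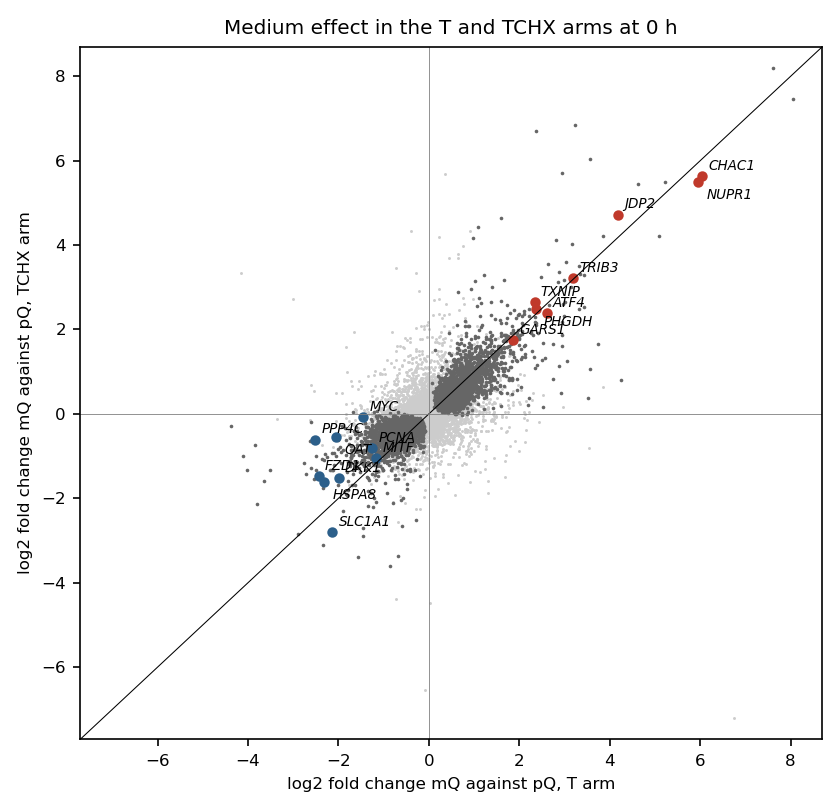
Log2 fold change of mQ against pQ in the T arm (x axis) and in the TCHX arm (y axis) at 0 h, with 1 point per gene, dark grey if called over both arms and light grey if not, and the line of equal change. Named genes are red if higher and blue if lower in mQ. The named genes higher in mQ lie near the line, such as ATF4 at 2.61 and 2.38, whereas PPP4C (-2.52 and -0.61) and OAT (-2.06 and -0.56) lie above it.

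A contrast of the siRNA experiment, CTU2 siRNA against control siRNA at 0 h in 12 libraries, was used for comparison. Those cells also received triptolide, with cycloheximide in the TCHX arm only. The time before the inhibitors was 42 h there, against 18 h for the media, so the times were not matched. The medium effect and the siRNA effect differed for 5706 of 13575 genes (42.0%). Of the 24 amino acid response genes tested in that fit, 22 had a higher and 2 a lower log2 fold change in the medium contrast, with adjusted p under the threshold, and over the 23 genes in both fits the medians were 2.08 for the medium and 0.13 for the siRNA. ATF4 changed by 2.51 in the medium contrast and by 0.04 in the siRNA contrast (adjusted p of the difference 1.97e-17). For SLC7A11, in contrast, the siRNA effect of 2.75 was larger than the medium effect of 2.14 (adjusted p = 0.00185). The 48 G2/M genes had a median of -0.24 for the medium and of 0.40 for the siRNA, and 39 of them were lower by the medium effect than by the siRNA effect. The medium and siRNA contrasts do not share libraries.

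The study followed mRNAs by their codons, and the codon content of the changed mRNAs is given as a description, with no test. In 11058 genes with a coding sequence, glutamate made up on average 7.39% of the codons in mRNAs called higher, 7.18% in those called lower and 7.24% in those not called, with SDs of 2.75, 2.83 and 2.7 percentage points. Aspartate made up 4.85%, 4.97% and 4.82%. Glutamine made up 4.71%, 4.6% and 4.69%. The GAA codon of glutamate was at 3.07%, 3.32% and 3.14%, and GAG at 4.32%, 3.86% and 4.1%. The GAT codon of aspartate was at 2.24%, 2.48% and 2.28%, and GAC at 2.61%, 2.49% and 2.53%. These mean differences are small beside the spread between genes. In a separate comparison, the study reported GAG and GAC, but not GAA and GAT, as enriched in mRNAs lowered by glutamine depletion. Here the means of GAG and GAC were lowest, and those of GAA and GAT highest, in mRNAs called lower. Libraries and thresholds were not matched, and the difference was not tested.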

How the data were processed

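The counts per gene were deposited by the authors as whole-number read counts. Per the study's methods, forward reads of 3′ QuantSeq libraries were trimmed with fastp 0.20.1, mapped with HISAT2 2.2.1 to GRCh38.p13 and assigned to exons with HTSeq 0.13.5 and the NCBI annotation. Molecular identifiers and the strand setting of HTSeq are not given in the sources used here, so counts may include PCR copies. Standard errors come from the spread between libraries, and the floor of 3 counts covers counting error only. Spike-in names were absent from the table used here. Of 44659 gene names, 12921 passed edgeR's filterByExpr. The 6 mQ and 5 pQ libraries were compared with edgeR 4.0.16 in R 4.3.3 (TMM scaling, quasi-likelihood test, arm as a covariate, Benjamini-Hochberg adjustment, threshold 0.05). Alternatives used DESeq2 1.42.0, limma 3.58.1 and other settings, and the script was tested on simulated data. CPM were computed over all counts. Coordinates are those of GENCODE for GRCh38.

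The members, the gene lists and the rules were chosen with earlier results of these data known. Named genes were the 10 largest rises and falls without overlap and with at least 50 counts on average in the higher group, the 3 called higher and 3 called lower with the smallest p in each list, and a fixed set. Other list members were named after their values were seen. Of the listed genes in the table, 71 were not tested, 44 of them with at most 5 counts in every library, and they are given no direction. Some listed genes are counted in their lists but not reported here by name.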

Additional observations from a re-analysis of the deposited data

Results flagged for a closer look

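Of 336 groups of libraries examined, 21 had a highest or lowest library far from the others, where chance gives about 1 in 20 groups. The library mQ T replicate 2 held 8 of them. It was low in ALDH18A1 (17.2 CPM, the other mQ libraries 45.3 to 52.4), PFKFB3 (72.0, others 91.5 to 99.3) and UAP1 (17.1, others 25.4 to 26.7). It was high in E2F1 (76.5, others 51.6 to 60.4), EIF2S2 (1624, others 1234 to 1298), MKI67 (248, others 165 to 195), MVK (28.2, others 15.9 to 20.2) and RPL12 (962, others 775 to 824). In mQ TCHX replicate 1, MTR was at 92.7 CPM (others 67.2 to 72.5) and RPL23A at 1468 CPM (others 1117 to 1189).

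Among the pQ libraries, T replicate 1 had 10.8 CPM of PC (others 11.8 to 12.1). T replicate 2 had 161 CPM of CS, 141 of MXI1 and 396 of PAICS, where the others were at 135 to 142, 161 to 168 and 354 to 363. T replicate 3 had 340.3 CPM of ACSL3 and 100.3 of ELOVL5, where the others were at 283 to 299 and 114 to 115. TCHX replicate 1 had 232 CPM of CCND1, 115 of FANCI and 1378 of RPL8, where the others were at 249 to 255, 101 to 105 and 1252 to 1288. TCHX replicate 2 had 119 CPM of EIF4E and 31.7 of PSPH, where the others were at 113 to 114 and 23.8 to 25.8.

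The library left out of the comparison, pQ TCHX replicate 3, held the blood cell genes PTPRC and CD3E at 31.8 and 32.6 CPM, against 0.392 and 0 CPM at most in the 11 libraries compared.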

How the results depend on the processing

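The number of genes called (4780, 18.4% of the tested genes higher and 18.6% lower) was 3071 in the T arm alone, 2553 in the TCHX arm alone (10.4% higher and 9.71% lower) and 417 in a test against a 1.5-fold change (2.36% and 0.867%). Without a filter on low counts, where more genes were tested, 10.8% were higher and 11.2% lower. Leaving out libraries gave 2699 to 4971 genes called, 10.8% to 19.2% higher and 9.85% to 19.6% lower, with the lowest without replicate 1 of every group and the highest without mQ T replicate 2. Scaling by library totals gave 2056 higher and 2744 lower. The library score as a covariate, and leaving out mQ T replicates 1 and 2, were chosen after seeing the data, as was the block with the left-out library put back. The difference between arms was called for 0 to 4 genes when libraries were left out, for 113 without a filter on low counts and for 1 with the replicate block. The causes were not tested.

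With the replicate number as a block, 4804 genes were called, 2350 higher and 2454 lower. Deviations of mQ and pQ libraries of the same number from their group means correlated at 0.103, -0.139 and -0.128 in the T arm and at 0.0375 and 0.00251 in the TCHX arm. These values rest on groups of few libraries, so they cannot show whether the numbers pair the samples. AXL went with the number in both media, at 36.4 to 46.6 CPM in replicate 2 and 20.1 to 26.3 CPM in replicates 1 and 3. How many genes do so was not counted. T and TCHX libraries of one number correlated at 0.176, 0.141 and 0.29 in mQ and at 0.00575 and 0.127 in pQ, and may share a culture. With the arms summed per replicate 4343 genes were called, and with the culture as a correlated block in limma 4533.

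List medians are log2 values, and where several are given for one list they follow its main value. Glycolysis (0.037) turned to -0.0407 without the filter, -0.046 with pQ TCHX replicate 3 put back, -0.0464 with it and the block, -0.0596 in the TCHX arm, and -0.0623 to 0.0638 with libraries left out. Fatty acid synthesis (-0.054) turned to 0.109 with the score and to -0.125 to 0.116 with libraries left out, and G1 regulators (-0.0527) to 0.0383 with the score. With the score as a covariate, NRF2 targets (0.0974) had 0.261, cytosolic synthetases (0.663) 0.786, mitochondrial synthetases (-0.0347) -0.15, ribosomal proteins (0.0341) 0.087, ribosome biogenesis (-0.158) -0.0909 and G2/M genes (-0.244) -0.377. Without mQ T replicates 1 and 2, NRF2 targets had 0.2 and ribosome biogenesis -0.117. In the T arm, p53 targets (-0.0995) had -0.0189, serine and folate enzymes (0.315) 0.533, hexosamine enzymes (0.117) 0.0242, transporters (0.639) 0.811 and ribosome biogenesis -0.108. In the TCHX arm, autophagy genes (0.212) had 0.13, glutamine and proline enzymes (0.208) 0.342, hexosamine enzymes 0.224, ribosome biogenesis -0.116 and translation factors (0.0804) 0.142. With a mean of at least 50 counts, p53 targets had -0.0183 and transporters 1.02. Without the filter cytosolic synthetases had 0.506. With pQ TCHX replicate 3 put back cholesterol genes (-0.252) had -0.371, and -0.359 with the block. Ribosome biogenesis had -0.198 by library totals and -0.0997 with arms summed. With libraries left out, NRF2 targets ranged from 0.0776 to 0.226, heat shock genes from -0.656 to -0.488, autophagy genes from 0.132 to 0.254, serine and folate enzymes from 0.227 to 0.494, glutamine and proline enzymes from 0.189 to 0.331, mitochondrial synthetases from -0.149 to -0.0443, ribosomal proteins from 0.012 to 0.0927, ribosome biogenesis from -0.178 to -0.103, translation factors from 0.0252 to 0.123 and ERK feedback genes from 0.362 to 0.584. Among named genes, ALDH18A1 and MYC turned to 0.0572 and 0.0675 with the score and PES1 to -0.0106 in the TCHX arm. Over all settings, named genes kept their direction and call 4542 times, lost the call 418 times, gained it 16 times and reversed 3 times.

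Counting error limits the scarce genes, such as ADM2, ALDH1L2, CAMP and SLC1A1, and the listed genes at or near 0 counts, ASNS and LDHA among them, are given no direction, and why they are near 0 was not tested.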
